A study of Mus musculus with 6 samples.

Results

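Heat shock proteins and their co-chaperones were examined in mouse lung endothelial cells (ECs) across 10 named genes: 6 inducible chaperones (Hspa1a, Hspa1b, Hsp90aa1, Hsph1, Dnajb1 and Hspb1) and 4 constitutive or organelle chaperones (Hspa8, Hsp90ab1, Hspa5 and Hspe1). Every probe set that the array annotation gave to 1 of these symbols alone was taken, which yielded 24 probe sets of 9 genes out of 45037 probe sets tested and 18193 genes with such a probe set. Hsp90ab1 had none and was not analysed here. A probe set is a group of short probes on the array that reads the RNA of 1 transcript or gene, and its value here is a log2 signal, so that a difference of 1 is a doubling.

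The arrays came from a study of how macrophages shape the ECs of lung metastases. Female NSG mice of 6 to 8 weeks, which have no T, B or natural killer cells, received MDA-MB-231-LM2 cells through the tail vein. This is a human breast cancer line selected in mice for its spread to the lung. Clodronate-liposome mice were given liposomes loaded with clodronate, a drug that kills phagocytes once they have engulfed it, on days 14, 16 and 18, and PBS-liposome mice were given buffer-filled liposomes on the same days. Lungs of both groups were taken on day 20, in the third week after the injection, and ECs were sorted as CD31-positive cells after exclusion of cells with blood, epithelial, fibroblast or tumor markers. Each group had 3 biological replicates with 1 array each. Both groups carried the tumor cells, tumor-free lungs were not part of these arrays, and the labels do not say how many mice made up a replicate, so the p-values measure the spread between these samples.

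Chaperones bind unfolded protein and help it to fold, to be taken apart again or to be handed on for degradation. Under heat, oxidants or other damage the transcription factor HSF1 is released from chaperones, binds repeated GAA blocks called heat shock elements and drives the inducible genes, whereas the constitutive members serve protein synthesis in unstressed cells. In the endoplasmic reticulum (ER) a separate sensor system acts through an ER stress element. In ECs, heat shock proteins are known as markers of mechanical, oxidative and inflammatory stress, and dissociation of tissue is itself known to induce them.

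The promoters of the inducible pair Hspa1a and Hspa1b, which encode the stress-induced cytosolic HSP70, are shown first because the largest differences among the 9 measured genes were found for this pair and because they are near copies. Both are the 250 bases before the RefSeq start site on the minus strand of chromosome 17 (GRCm38.p6), at chr17:34959239-34959488 for Hspa1b and chr17:34972157-34972406 for Hspa1a, written 5′ to 3′ with the heat shock element in capitals.
Hspa1b: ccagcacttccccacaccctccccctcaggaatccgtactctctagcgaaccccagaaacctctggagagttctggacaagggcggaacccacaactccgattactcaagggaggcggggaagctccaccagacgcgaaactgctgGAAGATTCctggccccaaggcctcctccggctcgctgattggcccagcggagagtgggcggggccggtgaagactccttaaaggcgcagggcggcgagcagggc
Hspa1a: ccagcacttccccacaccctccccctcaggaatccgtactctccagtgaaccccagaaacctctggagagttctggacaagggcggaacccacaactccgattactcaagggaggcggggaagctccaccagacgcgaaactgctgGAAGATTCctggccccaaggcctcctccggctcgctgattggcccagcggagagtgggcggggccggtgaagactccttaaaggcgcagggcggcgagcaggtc
The windows held the same base at 247 of 250 positions, and the only match to the element lay 104 bases before the start in both. The coding sequences of these copies are known to be nearly identical too, so their probe sets may read RNA of both, and it is uncertain to which copy a difference belongs.

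Stretches around the motifs of 4 further genes are shown to contrast heat shock elements with the ER stress element, each with 20 bases on either side and cut at the start site. They lie at chr5:135887782-135887849 (plus strand) for Hspb1, chr5:149636342-149636389 (minus strand) for Hsph1, chr1:55088039-55088096 (plus strand) for Hspe1 and chr2:34772005-34772063 (plus strand) for Hspa5, in the same build, with the motif in capitals.
Hspb1: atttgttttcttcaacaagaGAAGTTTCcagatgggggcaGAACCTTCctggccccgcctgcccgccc
Hsph1: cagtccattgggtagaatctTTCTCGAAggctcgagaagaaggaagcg
Hspe1: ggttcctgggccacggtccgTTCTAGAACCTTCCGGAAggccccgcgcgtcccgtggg
Hspa5: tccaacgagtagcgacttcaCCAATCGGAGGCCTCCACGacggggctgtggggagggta
The heat shock element was searched as GAANNTTC and TTCNNGAA, each of which reads the same on both strands, in windows of 250 bases before to 50 after the start. Of the 10 genes, 7 matched a window by symbol (Hspa1a, Hspa1b, Dnajb1, Hsph1, Hspb1, Hspe1 and Hspa5), and 5 of those 7 held a match, against 15.1% of all 32851 windows. Hspb1 had 2 separate matches, Hspe1 had 3 that overlap each other, and Hsph1 had 1 before its start and 2 overlapping ones after it. Dnajb1, with 2 windows, and Hspa5 had no match. The ER stress element, CCAAT and CCACG with 9 bases between them on either strand, was found in Hspa5 alone of the 7 and in 0.119% of all windows. A match is a description of letters and was not tested as a site.

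In total, 0 of the 24 probe sets passed limma's test after Benjamini-Hochberg adjustment over the whole array at 0.05, where 138 probe sets (0.306%) did; that number was 6 to 73 when any 1 array was left out. Adjusted p ranged from 0.0684 to 0.996. At an unadjusted p under 0.05, 8 of the 24 were lower after clodronate-liposome and 0 higher, against 5.27% lower and 5.53% higher over the array. In 10 of the 24, every clodronate-liposome array was below every PBS-liposome array, and in 0 every one was above, against 8.04% and 7.97% of all probe sets. The probe sets of 1 gene are not independent, and the 8 came from 4 genes, Hspa1a, Hspa1b, Dnajb1 and Hspb1, all of them inducible. Probe sets of Hspa1a and Hspa1b may read RNA of both copies, so the 4 genes are not all independent either. Of the 24 probe sets, 20 had a mean signal above the median of the array, so most of these genes were read well above dim signal.

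Hspa1b gave the smallest p among the 24 probe sets of these 9 genes. Its brightest probe set read 9.30, 9.99 and 9.57 in clodronate-liposome ECs, against 10.67, 10.59 and 10.65 in PBS-liposome ECs. The groups did not overlap, and the PBS-liposome arrays lay close together while the clodronate-liposome arrays spread over a wider range. The means were 9.62 ± 0.35 after clodronate-liposome and 10.64 ± 0.042 after PBS-liposome (SD, n = 3 each), a log2 difference of −1.02 (SE 0.17, 2.02-fold lower) with an adjusted p of 0.0684 by limma. Its dimmer probe sets differed by −0.61 (adjusted p = 0.240 by limma) and −0.66 (adjusted p = 0.150 by limma), with groups that did not overlap either. The dimmest read 6.40, 6.25 and 6.76 in clodronate-liposome ECs, against 7.28, 7.01 and 7.10 in PBS-liposome ECs, and the other 6.50, 6.51 and 7.02 in clodronate-liposome ECs, against 7.50, 7.07 and 7.30 in PBS-liposome ECs. In both, clodronate-liposome replicate 3 and not replicate 2 was nearest to the PBS-liposome arrays.

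Hspa1a, the neighbouring copy, was read by 1 probe set, at 8.45, 9.48 and 8.76 in clodronate-liposome ECs, against 9.73, 9.78 and 9.70 in PBS-liposome ECs. Replicate 2 of the clodronate-liposome group was nearest to the PBS-liposome arrays, as it was for the brightest Hspa1b probe set, yet it lay below all 3 of them. The means of 8.90 ± 0.53 after clodronate-liposome and 9.74 ± 0.041 after PBS-liposome (SD, n = 3 each) differed by −0.84 (SE 0.23, adjusted p = 0.228 by limma). Without replicate 2, the difference was −1.13 for Hspa1a (adjusted p = 0.0454) and −1.20 for Hspa1b (adjusted p = 0.0411), both past the threshold by limma. With replicate 2 as the only clodronate-liposome array, a setting chosen after seeing the data, the differences were −0.26 (adjusted p = 0.644) and −0.64 (adjusted p = 0.447) by the same tool.

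Hspb1 encodes HSP27, a small heat shock protein that holds unfolded protein and binds actin. Its brightest probe set read 12.11, 12.11 and 12.19 in clodronate-liposome ECs, against 12.52, 12.55 and 12.72 in PBS-liposome ECs. Here the clodronate-liposome arrays agreed closely and replicate 2 did not stand apart. The difference was −0.46 (SE 0.099, adjusted p = 0.140 by limma), and −0.50 (adjusted p = 0.161 by limma) in the second probe set, again without overlap.

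Dnajb1 encodes an HSP40 co-chaperone that hands clients to HSP70 and speeds its ATP cycle. It read 12.21, 12.31 and 12.22 in clodronate-liposome ECs, against 12.54, 12.59 and 12.41 in PBS-liposome ECs. The groups were apart by a narrow margin, with a difference of −0.26 (SE 0.096, adjusted p = 0.371 by limma). The second Dnajb1 probe set read 11.10, 10.70 and 10.82 in clodronate-liposome ECs, against 11.57, 11.29 and 11.31 in PBS-liposome ECs, a difference of −0.52 (adjusted p = 0.201 by limma).

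The 2 other inducible genes had overlapping groups in every probe set. Hsph1, which encodes HSP110, a nucleotide exchange factor of HSP70, read 11.21, 11.79 and 11.58 in clodronate-liposome ECs, against 11.77, 11.53 and 11.67 in PBS-liposome ECs. Its difference was −0.13 (SE 0.16, adjusted p = 0.843 by limma), with a 95% confidence interval of −0.49 to 0.23, and it turned to 0.03 without clodronate-liposome replicate 1. Hsp90aa1, the stress-inducible cytosolic HSP90, read 12.46, 12.44 and 12.58 in clodronate-liposome ECs, against 12.54, 12.51 and 12.57 in PBS-liposome ECs. Its 5 probe sets differed by −0.27 to −0.01, and the interval of the brightest, −0.26 to 0.16, leaves out a change of the size measured for Hspa1b.

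**Figure D1:**
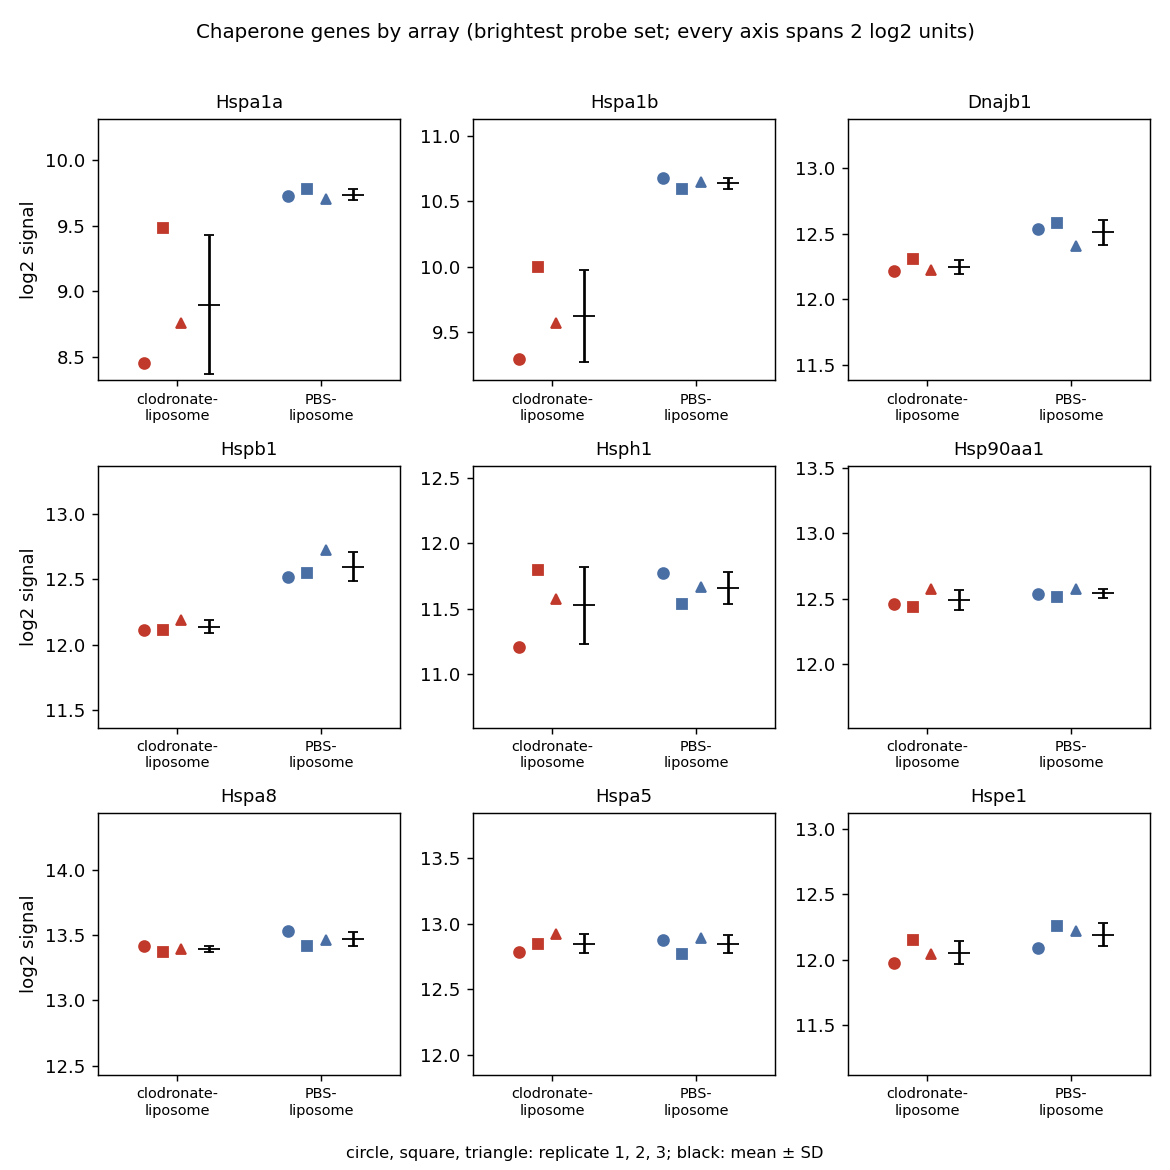
Log2 signal of the 9 measured chaperone genes by array, each by its brightest probe set, with clodronate-liposome arrays in red and PBS-liposome arrays in blue; circle, square and triangle are replicates 1, 2 and 3, black bars are mean ± SD, and every axis spans 2 log2 units. Hspa1a and Hspa1b show the largest differences between group means, with clodronate-liposome replicate 2 nearest to the PBS-liposome arrays. Hspb1 shows a smaller difference of means with little spread, and Hsp90aa1, Hspa8 and Hspa5 nearly level groups.

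Constitutive and organelle chaperones had differences near 0 in their brightest probe sets. Hspa8, the HSC70 that assists folding and clathrin uncoating in unstressed cells, read 13.42, 13.37 and 13.40 in clodronate-liposome ECs, against 13.53, 13.42 and 13.46 in PBS-liposome ECs. The difference was −0.07 (95% confidence interval −0.28 to 0.13, adjusted p = 0.847 by limma), although the groups did not overlap. The dimmer Hspa8 probe sets differed by 0.10, 0.21 and −0.06, so its direction depended on the probe set.

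Hspa5 encodes BiP, the HSP70 of the ER. Its brightest probe set read 12.78, 12.84 and 12.92 in clodronate-liposome ECs, against 12.88, 12.77 and 12.89 in PBS-liposome ECs, a difference of 0.0039 with a 95% confidence interval of −0.21 to 0.22. The second, almost as bright, differed by −0.15 with groups that did not overlap (adjusted p = 0.624 by limma), and the dimmest by 0.27 (adjusted p = 0.503 by limma). Hspe1, the HSP10 lid of the mitochondrial chaperonin, read 11.97, 12.15 and 12.04 in clodronate-liposome ECs, against 12.09, 12.26 and 12.22 in PBS-liposome ECs. It differed by −0.14 (95% confidence interval −0.37 to 0.09, adjusted p = 0.700 by limma) in the brighter probe set and by 0.20 (adjusted p = 0.801 by limma) in the dimmer one. Hspe1 carried more overlapping heat shock elements in its printed stretch than any of the other printed genes. Its groups overlapped in each probe set, and a link between elements and differences was not tested.

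**Figure D2:**
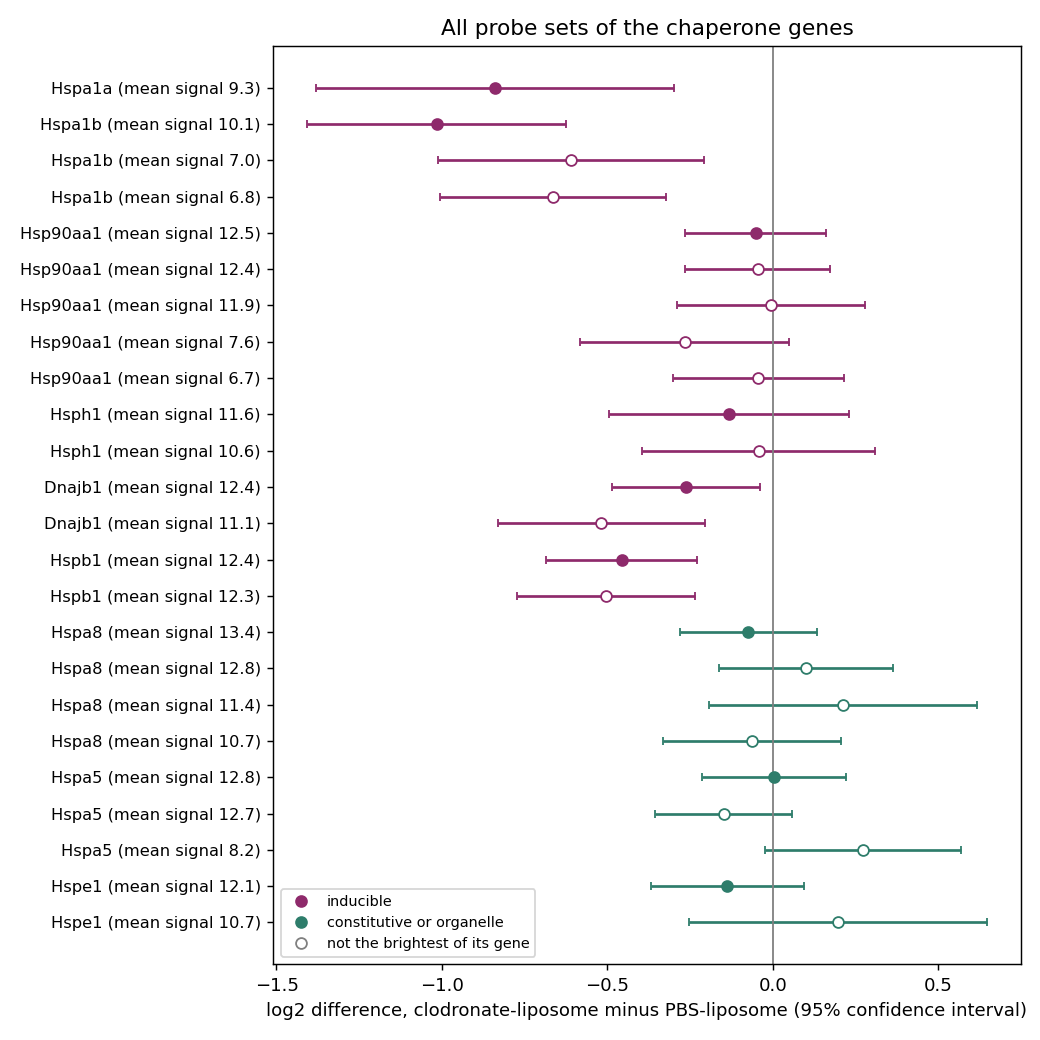
Log2 difference, clodronate-liposome minus PBS-liposome, of all 24 probe sets of the 9 genes with limma's 95% confidence interval; purple marks inducible and green constitutive or organelle chaperones, filled points the brightest probe set of a gene. The intervals of 8 probe sets, all of Hspa1a, Hspa1b, Dnajb1 or Hspb1, lie below 0, and the constitutive ones all include 0.

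By group, the inducible genes had a median difference of −0.36 (range −1.02 to −0.05), with 6 of 6 below 0 and 4 of 6 lower without overlap. The near copies Hspa1a and Hspa1b are counted separately here, though their probe sets may read RNA of both. Over all 18193 genes by brightest probe set, 9269 were below 0 and 1591 were lower without overlap. The 3 measured constitutive genes had a median of −0.07 (range −0.14 to 0.0039), and all 18193 genes a median of −0.0031. The medians of the inducible and constitutive genes differed by −0.29. Averaged within each array, the inducible genes stood at 10.96, 11.35 and 11.15 in clodronate-liposome ECs, against 11.63, 11.59 and 11.62 in PBS-liposome ECs. The constitutive genes stood at 12.72, 12.79 and 12.79 in clodronate-liposome ECs, against 12.83, 12.82 and 12.86 in PBS-liposome ECs. The inducible mean minus the constitutive mean of the same array was −1.77, −1.43 and −1.64 in clodronate-liposome ECs, against −1.21, −1.22 and −1.24 in PBS-liposome ECs. The inducible mean therefore varied by array within the clodronate-liposome group and hardly at all within the PBS-liposome group. The members were chosen with earlier results of these data known, so no p is given for these means. In sorted bulk RNA, fewer cells of a type and less RNA per cell cannot be told apart.

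The signals of control probe sets moved with part of this pattern. The array's hybridization control probe sets averaged 11.91, 12.20 and 11.94 in the clodronate-liposome arrays, against 12.11, 12.24 and 12.12 in the PBS-liposome arrays. The 18S ribosomal RNA control averaged 13.01, 12.33 and 13.00 in the clodronate-liposome arrays, against 12.63, 12.39 and 12.56 in the PBS-liposome arrays. Replicates 1 and 3 of the clodronate-liposome group, the ones with the lowest Hspa1a and the lowest brightest Hspa1b probe set, thus also stood apart in these controls, and replicate 2 did not; the dimmer Hspa1b probe sets did not follow that order. When the hybridization controls, without 18S, entered the fit as a covariate, the differences were −0.45 for Hspa1a (adjusted p = 0.401), −0.78 for Hspa1b (adjusted p = 0.217), −0.48 for Hspb1 (adjusted p = 0.286) and −0.20 for Dnajb1 (adjusted p = 0.581) by limma. The Hspb1 difference was thus as large as without the covariate, while that of Hspa1a was smaller by more than 1.5 times. The lowest hybridization controls were those of clodronate-liposome replicates 1 and 3, so the covariate and the treatment cannot be fully told apart. A technical cause was not tested.

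**Figure D3:**
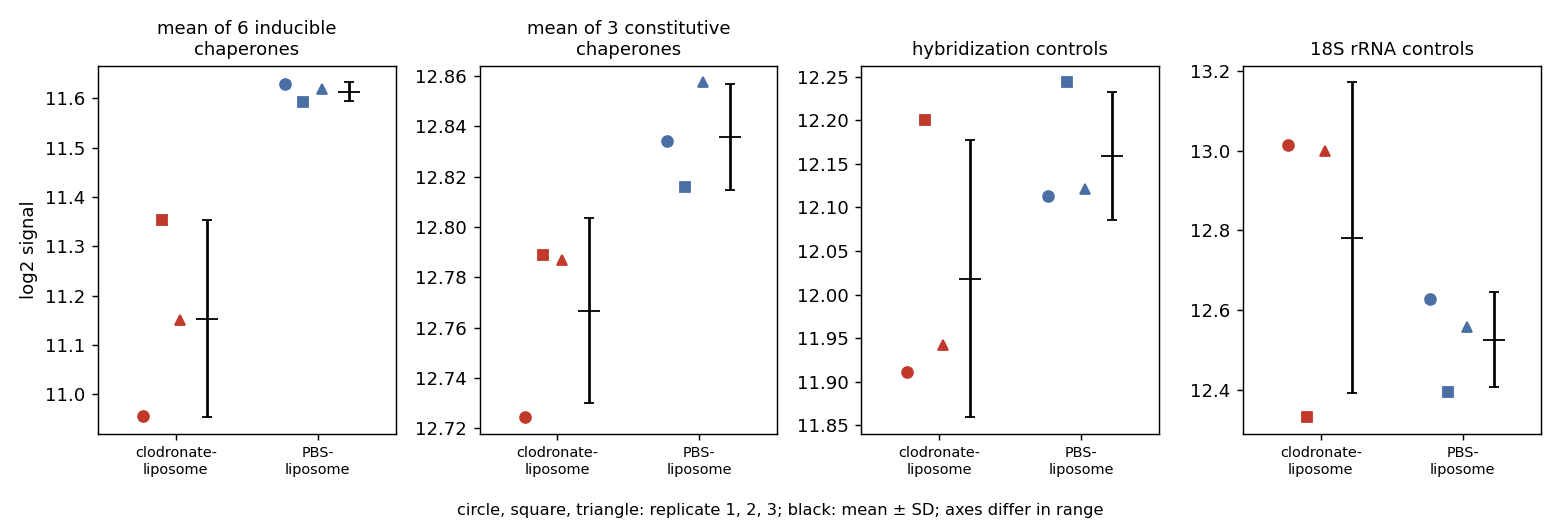
Mean log2 signal by array of the 6 inducible chaperones, the 3 measured constitutive chaperones, the hybridization controls and the 18S ribosomal RNA controls, with clodronate-liposome arrays in red, PBS-liposome arrays in blue and mean ± SD in black; the axes differ in range. The inducible mean lies at 10.96 to 11.35 after clodronate-liposome and at 11.59 to 11.63 after PBS-liposome, and replicates 1 and 3 of the clodronate-liposome group are also the lowest in the hybridization controls and the highest in 18S.

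Of the other genes of the heat shock response, 15 of 16 listed heat shock factors and heat-inducible co-chaperones were measured; Hsf1 itself had no probe set of its own and was not analysed here. By brightest probe set, 0 of 15 passed the test in either direction by limma (2 higher and 1 lower at an unadjusted p under 0.05). Over all 18193 genes, 826 were higher and 998 lower at that unadjusted p. The median difference of the 15 was −0.03 (range −1.09 to 0.34). Hspb8, a small heat shock protein that works with BAG3 in clearing unfolded protein, had the lowest value of the list. Its brightest probe set read 10.07, 10.68 and 10.30 in clodronate-liposome ECs, against 11.17, 11.57 and 11.57 in PBS-liposome ECs, a difference of −1.09 (SE 0.18, adjusted p = 0.0675 by limma). The third and dimmest Hspb8 probe set fell to 8.40, 8.38 and 8.21 in clodronate-liposome ECs, against 9.35, 9.21 and 9.43 in PBS-liposome ECs, a difference of −1.0 (SE 0.11) that passed the test (adjusted p = 0.0178 by limma). That call was lost when any 1 array was left out (adjusted p 0.0504 to 0.0876 by limma). It was also lost when the fit took the hybridization controls described above as a covariate (0.149). With replicate 2 alone for its group the difference was −0.95, and all these differences were −1.06 to −0.94. The call held in 5 of 14 alternatives. Among them were probe sets above the median signal (adjusted p = 0.0096), a trended and robust variance model (0.0141) and array weights (0.0121), all by limma. The remaining Hspb8 probe set differed by −0.70 (adjusted p = 0.247 by limma).

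Several other members of this list had values above 0. Dnaja4, an HSP40 of the cytosol, read 10.86, 10.89 and 11.01 in clodronate-liposome ECs, against 10.60, 10.56 and 10.66 in PBS-liposome ECs, a difference of 0.32 without overlap (adjusted p = 0.259 by limma). Its dimmer probe sets differed by −0.04 and −0.13 with overlapping groups, so its direction depended on the probe set. Bag3, the nucleotide exchange factor that partners HSPB8, read 10.88, 10.76 and 10.75 in clodronate-liposome ECs, against 10.59, 10.64 and 10.59 in PBS-liposome ECs, a difference of 0.19 (adjusted p = 0.528 by limma). Cryab, a small heat shock protein of lens and muscle, differed by 0.34 (adjusted p = 0.401 by limma), and by 0.08 and −0.07 in its dimmer probe sets. Hsf2, a heat shock factor, differed by 0.30 (adjusted p = 0.554 by limma). Its dimmer probe set differed by 0.35 without overlap (adjusted p = 0.247 by limma). The values of Hspb8 and of its partner Bag3 thus had opposite signs. Of the 14 genes of this list with a promoter window, 7 held a heat shock element, among them Hspb8, Bag3 and Dnaja4.

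Among 7 other small heat shock proteins, 0 passed the test by limma and the median was −0.0029. At an unadjusted p under 0.05 by limma, 1 was lower and 0 higher, against 998 and 826 of all 18193 genes. The exception in size was Hspb9, best known from testis, at 7.55, 8.66 and 7.89 in clodronate-liposome ECs, against 9.43, 9.33 and 8.86 in PBS-liposome ECs. Its difference of −1.17 (SE 0.28, adjusted p = 0.170 by limma) again came with replicate 2 nearest to the PBS-liposome arrays. The other 6 lay between −0.05 and 0.10.

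The constitutive chaperone systems had differences near 0 by brightest probe set. The median difference was −0.0058 over 17 measured partners of constitutive HSP70 and HSP90 (range −0.16 to 0.18), −0.0061 over 9 mitochondrial chaperones (−0.08 to 0.18), and −0.02 over the 8 subunits of the cytosolic chaperonin CCT (−0.10 to 0.08). In each of these lists 0 genes passed the test by limma in either direction, and 0 reached an unadjusted p under 0.05 by brightest probe set. Among their dimmer probe sets, 1 of Hspa4, an HSP110-family exchange factor, differed by 0.49 (adjusted p = 0.122 by limma). Likewise 1 of Cct4 differed by 0.48 (adjusted p = 0.127 by limma), both higher without overlap. The brightest differed by −0.12 for Hspa4 and −0.07 for Cct4. At an unadjusted p under 0.05 by limma, 2 of 41 partner probe sets were higher and 2 lower. The mitochondrial list had 0 higher and 1 lower of 19, and CCT 1 and 1 of 25. Over the array, 5.53% of probe sets were higher and 5.27% lower, so these counts were near the share of all probe sets. The lower ones were of Hspa14 (−0.31), St13 (−0.28), Dnaja3 (−0.28) and Cct3 (−0.27). Hspd1, the HSP60 that forms the mitochondrial chaperonin with HSP10, read 11.95, 12.13 and 12.04 in clodronate-liposome ECs, against 12.05, 12.13 and 12.18 in PBS-liposome ECs (difference −0.08, adjusted p = 0.844 by limma).

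The 16 ER chaperones and folding factors had a median of −0.07 (range −0.32 to 0.13). Without overlap, 4 were lower and 1 higher by brightest probe set, against 1591 and 1362 of all 18193 genes. By limma, 0 passed the test. Where 998 of all genes were lower at an unadjusted p under 0.05 by limma, 1 of the 16 was. That gene was Sdf2l1, an ER co-chaperone of the BiP complex, which read 9.88, 9.64 and 9.63 in clodronate-liposome ECs, against 10.08, 10.03 and 9.99 in PBS-liposome ECs (difference −0.32, adjusted p = 0.312 by limma). Manf, a secreted factor induced by ER stress, differed by −0.24 and Dnajc3, a BiP co-chaperone, by −0.21 (adjusted p = 0.466 and 0.473 by limma). The 4 dimmer Dnajc3 probe sets differed by −0.04 to 0.33, so its direction depended on the probe set. Hsp90b1, the HSP90 of the ER, differed by −0.08 (adjusted p = 0.835 by limma), and by 0.08 in its second probe set. Of the 13 genes of this list with a promoter window, 6 held the ER stress element printed for Hspa5 and 0 held a heat shock element.

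**Figure D4:**
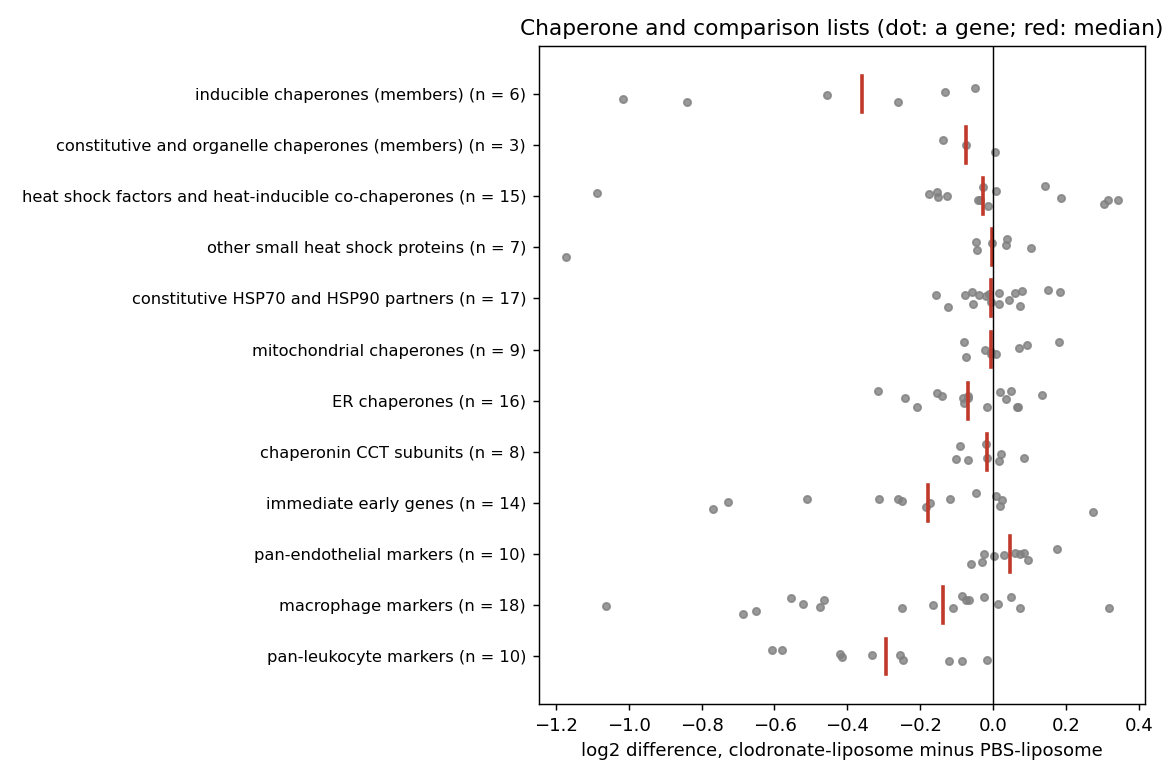
Log2 difference, clodronate-liposome minus PBS-liposome, of single genes (grey dots, brightest probe set) in the chaperone lists and comparison lists, with the median of each list in red. The inducible chaperones have a median of −0.36, whereas the constitutive, mitochondrial, ER and CCT lists have medians between −0.07 and −0.0058, and Hspb8 and Hspb9 lie apart from their lists near −1.1.

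Immediate early genes, which like heat shock genes are known to be induced when tissue is dissociated, were set beside the chaperones. Of 14 genes, 1 was called lower and 0 higher, against 63 and 16 of all 18193 genes. The median was −0.18 (range −0.77 to 0.27). At an unadjusted p under 0.05, 5 were lower and 1 higher by limma, against 998 and 826 of all genes. The called gene was Atf3, a stress-induced transcription factor, which fell to 12.11, 12.12 and 12.22 in clodronate-liposome ECs, against 13.00, 12.89 and 12.73 in PBS-liposome ECs, a difference of −0.73 (SE 0.11, adjusted p = 0.0454 by limma). The call was lost when any 1 array was left out (adjusted p 0.0968 to 0.173) and with the control covariate (0.198) by limma. The differences there were −0.80 to −0.66, and with replicate 2 alone the difference was −0.76. The call held in 5 of 14 alternatives, among them a trended and robust variance model (adjusted p = 0.0079) and array weights (0.0392) by limma. Egr2 differed by −0.77 (adjusted p = 0.170), Ier2 by −0.51 (adjusted p = 0.220) and Egr1 by −0.31 (adjusted p = 0.278) by limma, each without overlap. Fos, Jun and Dusp1 differed by −0.18, 0.01 and 0.02 with overlapping groups. Ier3, the 1 higher gene, differed by 0.27 (adjusted p = 0.452 by limma), also with overlapping groups. The part of the immediate early genes in the chaperone differences was not tested.

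**Figure D5:**
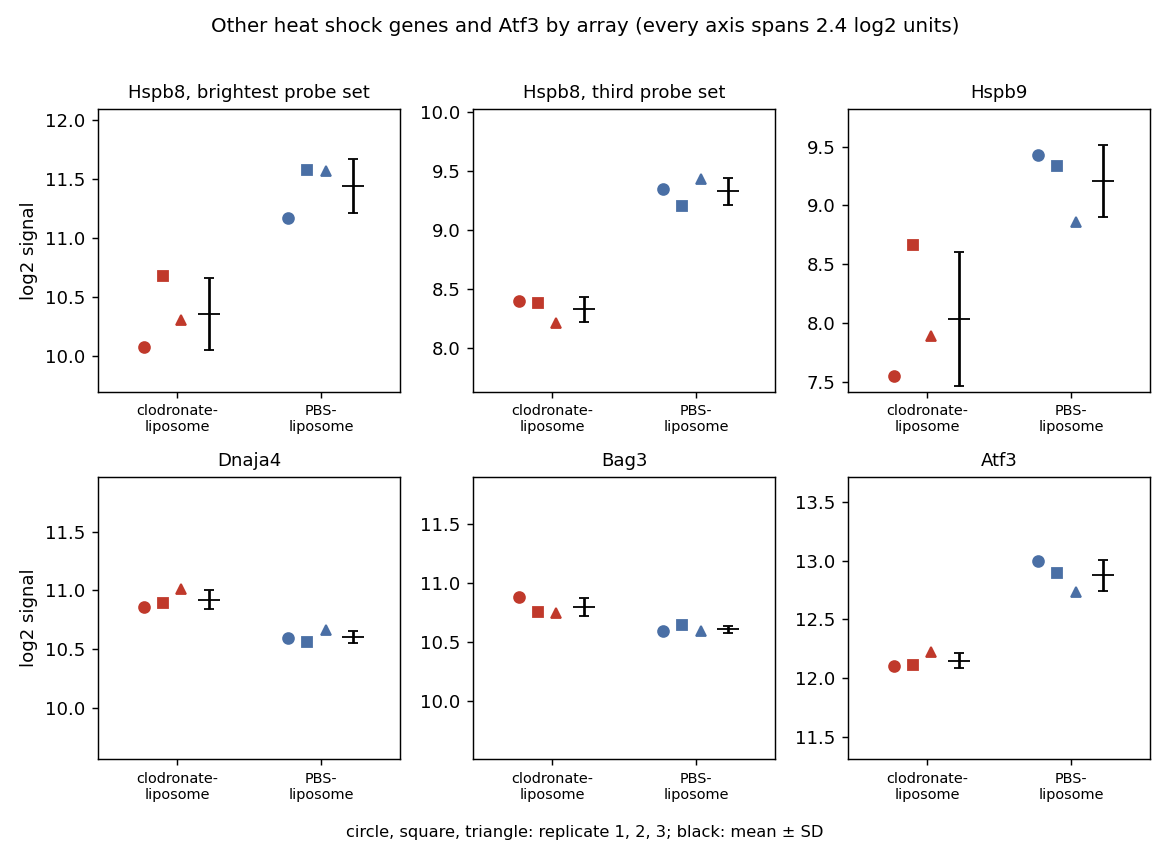
Log2 signal by array of Hspb8 (the brightest and the third probe set), Hspb9, Dnaja4, Bag3 and Atf3, with clodronate-liposome arrays in red, PBS-liposome arrays in blue and mean ± SD in black; every axis spans 2.4 log2 units. Hspb8, Hspb9 and Atf3 are lower and Bag3 and the brightest Dnaja4 probe set slightly higher in clodronate-liposome ECs; replicate 2 stands nearest to the PBS-liposome arrays in the brightest Hspb8 probe set and in Hspb9, but not in the third Hspb8 probe set or Atf3.

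Markers of the sorted cells and of other cells give the setting. Pecam1 (CD31) and Cdh5 differed by 0.07 and 0.09, and the 10 pan-endothelial genes had a median of 0.04 with 0 past the test by limma and 0 at an unadjusted p under 0.05. Their mean signal was 12.99 to 13.19 in clodronate-liposome ECs, against 13.02 to 13.09 in PBS-liposome ECs. The 18 macrophage markers averaged 8.15 to 8.33 in clodronate-liposome ECs, against 8.33 to 8.66 in PBS-liposome ECs, and 0 of 18 passed the test (6 lower and 0 higher at an unadjusted p under 0.05, where 998 of all 18193 genes were lower). Of the 18, 7 were lower without overlap, where 1591 of all 18193 genes were. Among the 7 were Cybb (−1.06), Csf1r (−0.65) and Lgmn (−0.52), with adjusted p of 0.0871, 0.101 and 0.101 by limma. The median of the 18 was −0.14, and 4 were above 0 by brightest probe set. These were Fcgr1 (0.32, but −0.23 in its dimmer probe set), Mertk (0.07), Mrc1 (0.05) and Siglec1 (0.01). The defining marker Adgre1 (F4/80) read 7.14 to 7.30 in clodronate-liposome ECs, against 6.94 to 7.85 in PBS-liposome ECs. Over 10 pan-leukocyte genes the means were 8.22 to 8.33 in clodronate-liposome ECs, against 8.38 to 8.81 in PBS-liposome ECs, with 0 past the test. All 10 were below 0 (median −0.29), 5 lower and 0 higher at an unadjusted p under 0.05. Without overlap 4 were lower, among them Ptprc (CD45) at −0.58 (adjusted p = 0.217 by limma). Over all 18193 genes, 998 were lower at that unadjusted p and 1591 lower without overlap. Epithelial, fibroblast and mural, platelet and mesothelial lists had 0 genes past the test, with medians of 0.02, −0.20, −0.18 and 0.54, and the mesothelial list stood at 8.94 in clodronate-liposome replicate 3, against 7.14 and 7.62 in the other two of that group and 7.33 to 7.66 in PBS-liposome arrays. The part of these markers in the chaperone values was not tested.

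By contrast, 8 of the 8 measured type I interferon response genes were called lower after clodronate-liposome by limma, against 63 of all 18193 genes. The median difference of the 8 was −1.95 (range −2.10 to −1.55). Their mean by array was 9.31, 9.90 and 10.01 in clodronate-liposome ECs, against 11.65, 11.63 and 11.68 in PBS-liposome ECs. Replicate 1 was the lowest there as it was for Hspa1a and the brightest Hspa1b probe set, but replicate 2 was not the highest. The number called was 2 to 8 when 1 array was left out, lowest without PBS-liposome replicate 2, and 0 with the control covariate. Over the whole array, 6 probe sets were called without PBS-liposome replicate 2 and 0 with the control covariate. The difference between the interferon genes and the chaperones was not tested.

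The genes whose brightest probe set most resembled the inducible mean over the 6 arrays were Rnd1 (Pearson r = 0.998), Pln (0.997), C1qtnf1 (0.996), Iffo2 (0.994) and Wdr54 (0.994). Their differences were −0.39, −0.41, −1.38, −0.46 and −0.61, with adjusted p of 0.0656 to 0.249 by limma. In all, 158 of 18184 genes had an r above 0.95, and the likeness describes 6 arrays in 2 groups and no more. Among the chaperones, Hspa1a and Hspa1b had an r of 0.96. Of the other inducible genes, Hspa1b had 0.91 with Dnajb1, 0.88 with Hspb1, 0.64 with Hsph1 and 0.37 with Hsp90aa1. Of the constitutive or organelle genes, Hspa1b had 0.81 with Hspe1, 0.61 with Hspa8 and 0.09 with Hspa5. Its r therefore did not separate inducible from constitutive genes.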

How the data were processed

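RNA of sorted lung ECs was profiled on Affymetrix mouse 3′ expression arrays, 3 per group. The log2 values deposited by the authors were RMA-normalized (background-corrected, quantile-normalized and summarized by probe set), with Chipster 3.8.0 named in the submitters' processing notes, and were used unchanged. RMA forces the arrays to 1 distribution, so a shift of all genes would not be seen. Array data give no read depth, and the number of arrays limits the precision.

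After removal of 64 control probe sets, 45037 were fitted with limma 3.58.1 (lmFit and eBayes, R 4.3.3), clodronate-liposome minus PBS-liposome, two-sided, with Benjamini-Hochberg adjustment over all of them and a threshold of 0.05. Symbols came from the platform annotation, which gave 34945 probe sets 1 symbol. A gene was represented by its probe set of highest mean signal, and all probe sets of the chaperone genes were reported. From the other lists, the genes of smallest p and a few fixed markers were named, and others were chosen after their values were seen. The members and lists were chosen with earlier results of these data known.

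Replicate numbers are shared by the groups in the labels. Deviations from the group means of same-numbered arrays correlated at 0.08, 0.07 and 0.04, against −0.058 to −0.0065 for arrays of different numbers. The main fit did not take the numbers as pairs, but these small values do not exclude pairing. A fit with a replicate block is therefore reported as well. Alternatives were a filter on dim probe sets, other normalizations, variance models, array weights, a control covariate, a replicate block, other probe set rules and leaving out arrays. The code was tested on simulated data. Promoter windows are RefSeq's (GRCm38.p6).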

Additional observations from a re-analysis of the deposited data

How the results depend on the processing

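Over the array 138 probe sets were called. Under other settings the number was 244 among probe sets above the median signal, 248 with a trended and robust variance model and 234 with array weights. It was 0 with a replicate block by limma (5033 at an unadjusted p under 0.05), 0 when the hybridization controls entered the fit (4710), 0 when replicate 2 stood alone for the clodronate-liposome group (3964, chosen after seeing the data, with its spread taken from the other group), and 6 to 73 when 1 array was left out. The 0 chaperone probe sets called became 1 among those above the median signal (Hspa1b, adjusted p = 0.0416) and 1 with array weights (Hspa1b, adjusted p = 0.0285), 2 with the trended and robust model (Hspa1b, 0.0362, and Hspb1, 0.0361), and 0 to 2 when 1 array was left out. The replicate block changed no call among the 9 chaperone genes and took away those of Hspb8 (adjusted p = 0.0754) and Atf3 (0.128).

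Over 16 alternatives, the difference stayed negative for Hspa1b (−1.20 to −0.64), Hspa1a (−1.13 to −0.26), Hspb1 (−0.50 to −0.39), Dnajb1 (−0.52 to −0.20) and Hsp90aa1 (−0.27 to −0.02). Hsph1 turned to 0.0124 with the control covariate and 0.13 with replicate 2 alone, and ranged from −0.27 to 0.0272 over left-out arrays. Hspa5 was −0.0168 and −0.0013 in those settings, and −0.0349 to 0.0377 over left-out arrays. Hspa8 and Hspe1 turned to 0.0435 and 0.0292 as means over probe sets and to 0.21 and 0.20 by their most variable probe set. The inducible median was −0.51 by the most variable probe sets. The constitutive median was 0.043 as a mean over probe sets, 0.21 by the most variable and −0.0432 with replicate 2 alone. Inducible minus constitutive was −0.48 as a mean over probe sets and −0.72 by the most variable. The causes were not tested.

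The heat-inducible co-chaperones had 1 call above the median signal, 1 with the trended model and 1 with array weights (Hspb8 each time). Immediate early calls were 0 with the block, the covariate or replicate 2 alone and 0 when any array was left out. Type I interferon calls were 0 with the block, the covariate or replicate 2 alone, and 2 to 8 over left-out arrays. The precision is limited by the 3 arrays of each group, and 4 of the 24 chaperone probe sets, among them the dimmer ones of Hspa1b, lay below the median signal of the array, where no detection call was used here.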
